A study of Danio rerio with 2 samples.

Results

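Peptide hormones are cut from larger precursor proteins, stored in dense granules and released by scattered endocrine cells of the gut, the pancreatic islet and the brain. The 7 genes described here encode such precursors: ghrl (ghrelin), npb (neuropeptide B), ins (insulin), gcga and gcgb (the zebrafish pair of glucagon genes), npy (neuropeptide Y) and pyya (peptide YY). They were taken by name from a table of 34326 genes, and were chosen around ghrl and npb because of the folds that this table gives them. All 7 were found, and all 7 had a p-value. The folds, p-values and levels of the members are therefore a description and no test of the group.

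The table compares rraga mutant larvae with wild-type larvae of the TL (Tupfel long fin) strain, both at 5 days post fertilization. In each genotype the cells were collected by flow sorting for GFP driven by the Cldnk promoter, which is active in oligodendrocytes, the myelinating glia of the central nervous system. rraga encodes RagA, a lysosomal GTPase that relays nutrient state to the kinase mTORC1, and the labels give no allele name. Each genotype has 1 record that merges 2 biological replicates, so no value per replicate is given. How deeply the records were sequenced is unknown. The level of a gene here is the larger of both genotype means, in a normalized unit that is not named. Whether that unit corrects for transcript length is not known, so levels of different genes are given side by side without ranking their abundance. The direction of every fold rests on the title of the table, which names the mutant first. rraga itself had a log2 fold of 0.44 (p = 0.477) in the authors' deposited table, which checks no label, since a mutant allele can still be transcribed.

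In the vertebrate islet, insulin comes from beta cells, glucagon from alpha cells, somatostatin from delta cells and ghrelin from epsilon cells. The gut epithelium holds further endocrine cells that make ghrelin, glucagon-like peptides and peptide YY. Insulin lowers and glucagon raises blood glucose, ghrelin and neuropeptide Y promote feeding, and peptide YY curbs it. Neuropeptide B is a brain peptide that acts on receptors of the NPBWR family. None of these genes is a marker of oligodendrocytes, and the transcripts were measured in bulk RNA of the sorted cells. A smaller number of hormone-producing cells in the sort cannot be told apart from less hormone RNA per cell.

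The members differed in direction. In the mutant ghrl and npb were far lower, and ins and pyya had lower values, while gcga, gcgb and npy had higher values. Past an FDR p-value of 0.05 in the authors' deposited table were 2 of the 7, both lower, against 0.221% of the 25757 genes with a p-value, or 0.0893% counted in the lower direction and 0.132% in the higher. The other 5 did not pass. Of the 5792 genes of level 10 or more, where both called members lie, 0.881% passed, or 0.345% lower and 0.535% higher. At an unadjusted p under 0.05 were 3 members, all lower, against 5.24% of all genes lower and 4.43% higher. Because the members were chosen from this contrast, nothing is read from that count. For every member an implied standard error was derived from the fold and p-value on the assumption of a normal test, and it gives the intervals below. Only the higher genotype mean is in the table, so the lower one is given as that level divided by the fold, which holds as far as the fold is a ratio of means.

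ghrl (ENSDARG00000054239, chromosome 6, 40440341 to 40442079, plus strand, GRCz11) encodes ghrelin. Its level was 0.458 in mutant cells, as the deposited level divided by the fold, against a deposited 69.2 in wild-type cells. The log2 fold of ghrl in the authors' deposited table was -7.24, a 151-fold lower value, with an FDR p of 1.67e-05. Its implied standard error was 1.21 on the log2 scale, with a 95% interval from -9.60 to -4.87. By its construction such an interval excludes 0 wherever the unadjusted p is under 0.05, so it adds no support to that p-value.

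npb (ENSDARG00000078828, chromosome 22, 11505449 to 11507972, plus strand, GRCz11) encodes the precursor of neuropeptide B. Its level was 0.390 in mutant cells, again as level divided by fold, against a deposited 15.7 in wild-type cells. The log2 fold of npb was -5.33 in the authors' deposited table, a 40.3-fold lower value, with an FDR p of 0.0350 and an interval from -7.89 to -2.78. npb passed the threshold narrowly and was not called at an FDR p under 0.01, where ghrl still was.

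The values of the glucose hormone genes had opposite signs, although none of them passed the threshold. ins (ENSDARG00000035350, chromosome 5, 37254532 to 37257543, plus strand) had a level of 1.87 in mutant cells by division and a deposited 14.2 in wild-type cells. For ins the authors' deposited table gives a log2 fold of -2.92 with p = 0.0614 and an FDR p of 0.700. gcga (ENSDARG00000079296, chromosome 22, 11587838 to 11596336, minus strand) had a deposited level of 14.9 in mutant cells and 3.48 by division in wild-type cells. Glucagon, the product of gcga, opposes insulin. Per the authors' deposited table, gcga had a log2 fold of 2.10, p = 0.0683 and an FDR p of 0.715. gcgb (ENSDARG00000040907, chromosome 9, 51733860 to 51740174, plus strand) had a deposited 23.9 in mutant cells and 4.32 by division in wild-type cells, and the authors' deposited table gives it a log2 fold of 2.46 with p = 0.118 and an FDR p of 0.829. Both glucagon genes thus had higher values, though neither was called, and whether their folds differ was not tested. The 95% intervals of ins (-5.98 to 0.14), gcga (-0.16 to 4.35) and gcgb (-0.62 to 5.55) each include 0.

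npy and pyya belong to one peptide family, whose members share a folded shape and the same set of receptors. npy (ENSDARG00000036222, chromosome 19, 20527423 to 20529826, minus strand) had a deposited level of 4.82 in mutant cells and 0.487 by division in wild-type cells. In the authors' deposited table npy had a log2 fold of 3.31, p = 0.0536, an FDR p of 0.691 and an interval from -0.05 to 6.66. pyya (ENSDARG00000053449, chromosome 3, 33209225 to 33213066, plus strand) had a level of only 0.672, which was that of wild-type cells. For pyya the authors' deposited table gives a log2 fold of -7.01, close to that of ghrl, but with p = 0.0452 and an FDR p of 0.685. Its implied standard error was 3.50, and the interval ran from -13.9 to -0.15. The same log2 fold, equal within 1e-06, was given to 17 other genes, whose levels and that of pyya ran from 0.140 to 0.672, whereas no other gene had the fold of any of the remaining 6 members. Under level 1 no gene of the table passed the FDR threshold, out of 10558.

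**Figure D1:**
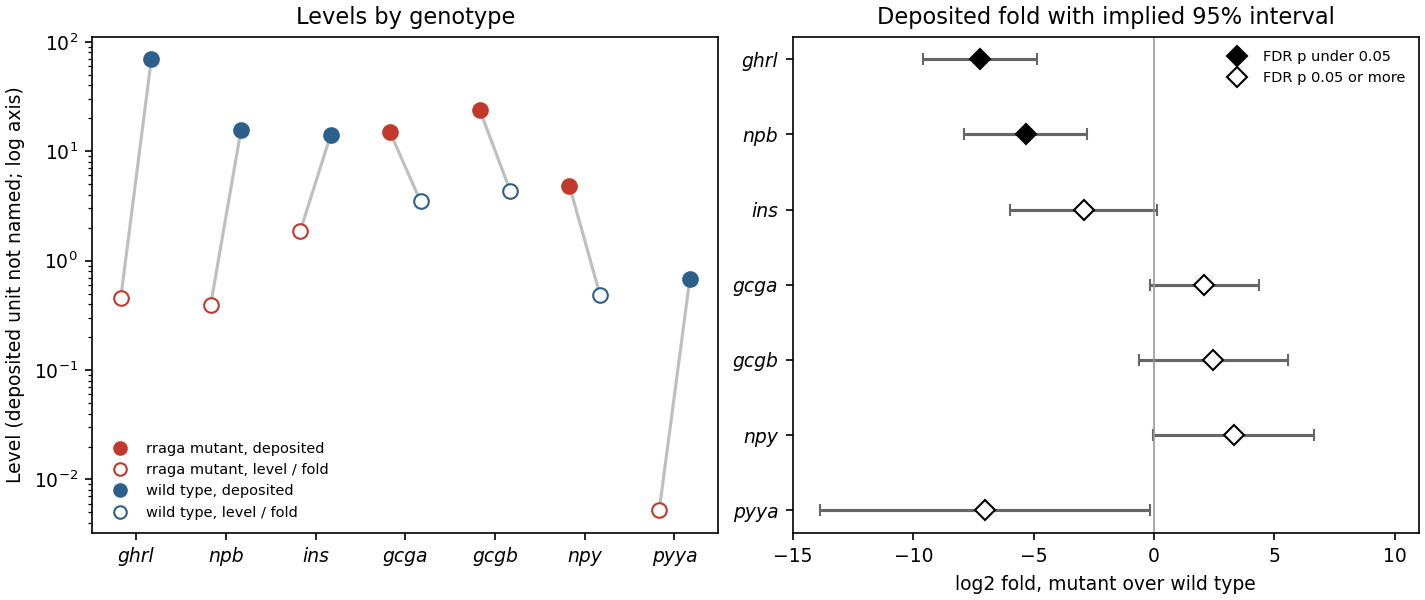
Left, level of each gene in rraga mutant cells (red) and wild-type cells (blue) on a log axis, with filled points for the deposited higher mean and open points for that level divided by the fold; right, deposited log2 fold of mutant over wild type with the implied 95% interval, filled where the FDR p was under 0.05. ghrl and npb lie far below 0, ins lies lower and gcga, gcgb and npy higher with intervals that reach 0, and pyya has the widest interval. Each interval follows from the fold and p-value, so whether it reaches 0 restates the unadjusted p.

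The implied standard errors give the precision behind each fold. They were 1.30 for npb, 1.56 for ins, 1.15 for gcga and 1.58 for gcgb, and the 3132 genes of level 10 to 30 had a median of 0.70 and quartiles of 0.61 and 0.86. ghrl had 1.21, against a median of 0.56 and an upper quartile of 0.61 among the 1716 genes of level 30 to 100. npy had 1.71, against a median of 1.04 and an upper quartile of 1.32 at levels of 3 to 10. For pyya, at 3.50, the median under level 1 was 2.02 and the upper quartile 3.10. These errors come from the folds and p-values by which the members were chosen, and a level class is set by the higher mean alone, so a gene with a large fold has a far lower second mean than most of its class. Nothing about hormone genes as a group is read from them. It is not known whether the authors' p-value carries the spread between replicates.

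**Figure D2:**
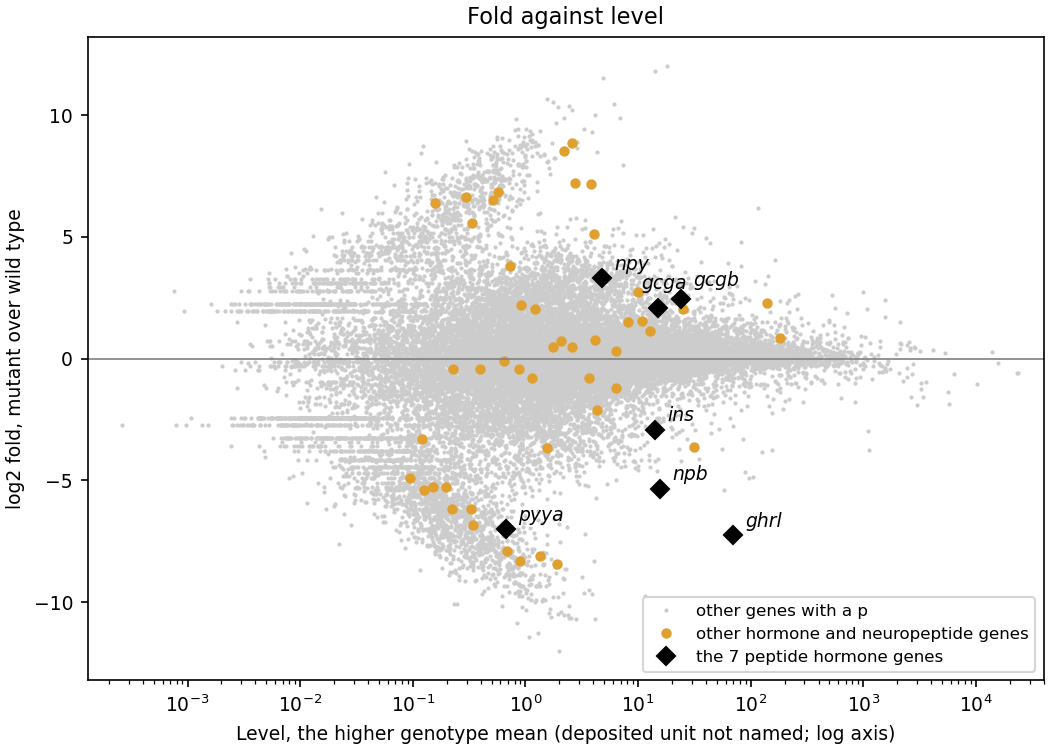
Log2 fold of mutant over wild type against level (log axis) for all 25757 genes with a p-value (grey), other hormone and neuropeptide genes (orange) and the 7 peptide hormone genes (black). ghrl, at a level of 69.2, npb and ins lie below the main cloud at their levels, while pyya lies within the lower arm formed by genes of low level.

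Beyond the members, 77 further hormone and neuropeptide genes were listed, of which 67 were found, 20 had level 0 and 47 had a p-value. None of these 47 passed the FDR threshold, with 25 higher and 22 lower, and 7 in each direction had an unadjusted p under 0.05. Their median log2 fold was 0.49 and their mean 0.046, beside a median of 0.02 over all genes with a p-value. Among all genes 9.66% had an unadjusted p under 0.05, and 0.221% passed the FDR threshold. These hormone lists were chosen with earlier results of the same data known, so nothing is read from their counts.

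Somatostatin, the peptide of delta cells that restrains the release of other hormones, had several paralogs in the table. sst2, at a level of 182, has a log2 fold of 0.83 (p = 0.441) in the authors' deposited table. sst1.2 had a level of 31.3, and the authors' deposited table gives it a log2 fold of -3.62, p = 0.00518 and an FDR p of 0.436. Its neighbour on chromosome 15, sst1.1, chosen after its value was seen, had a log2 fold of 1.52 (p = 0.367) in the authors' deposited table. pyyb, the paralog of pyya and also chosen after its value was seen, has a level of 2.19 and a log2 fold of 8.54 (p = 0.0260, FDR p = 0.655) in the authors' deposited table. The values of sst1.1 and sst1.2 thus had opposite signs, as did those of pyya and pyyb, while both glucagon genes had the same sign. Also named after their values were seen, sst3 had a log2 fold of -2.12 (p = 0.330) and sst6 one of 2.73 (p = 0.0696) in the authors' deposited table. None of these genes passed the FDR threshold, and the implied standard error of pyyb was 3.83. insb, the second insulin gene, had level 0.

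Of the brain and pituitary peptides, hcrt had a level of 140, and the authors' deposited table gives it a log2 fold of 2.30, p = 7.15e-04 and an FDR p of 0.190. It encodes hypocretin, a hypothalamic peptide of wakefulness and feeding. Its level was a deposited 140 in mutant cells and 28.6 by division in wild-type cells. pnoca, a nociceptin precursor gene, had a level of 10.8 and a log2 fold of 1.55 (p = 0.138) in the authors' deposited table. Among the 27 such genes other than npb and npy, 14 were higher and 13 lower, and 17 more had level 0, among them oxt, avp, pmch and gh1. The hypothalamic feeding gene agrp, named after its value was seen because the same hypothalamic neurons of mammals make npy and agrp, had a log2 fold of 0.49 (p = 0.767) in the authors' deposited table.

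Receptors for the members had levels of 6.88 or less. Of 20 listed, 15 were found, 5 had level 0, among them the ghrelin receptor gene ghsra, and 10 had a p-value, of which 4 were higher and 6 lower and none passed the threshold. The median log2 fold was -0.28 and the mean 0.43. These counts and averages include gipr (level 0.371), the receptor gene for the product of gip, which is not one of the members. insra, an insulin receptor gene, had a level of 6.88 and a log2 fold of -0.30 (p = 0.619) in the authors' deposited table. insrb, the other insulin receptor gene and the 1 receptor gene with an unadjusted p under 0.05, was named after its value was seen, and the authors' deposited table gives it a log2 fold of 3.76 (p = 0.0203, FDR p = 0.628) and a level of 1.02. Of all genes with a p-value 9.66% had an unadjusted p under 0.05, so nothing is read from 1 of 10. The glucagon receptor gene gcgra had a level of 1.72 and a log2 fold of -0.67 (p = 0.587) in the authors' deposited table. npbwr2a, a receptor of neuropeptide B that was named after its value was seen, had a level of only 0.153. The authors' deposited table gives npbwr2a a log2 fold of 6.73 (p = 0.0597, FDR p = 0.698).

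Genes for the shared machinery that processes and stores peptide hormones did not pass either. All 24 found had a p-value, 9 were higher and 15 lower, with a median log2 fold of -0.24, which turned to 0.24 over genes of level 1 or more, and 1 higher at an unadjusted p under 0.05. Of all genes with a p-value 4.43% were higher at that threshold, so nothing is read from 1 of 24. The granule protein genes scg3 and chga, for secretogranin and chromogranin A, had levels of 38.9 and 38.6. Per the authors' deposited table, scg3 had a log2 fold of 1.45 (p = 0.0135) and chga one of -1.60 (p = 0.0507). A further 3 genes named after their values were seen encode the precursor-cutting enzymes and the enzyme that acylates ghrelin. By the authors' deposited table the log2 fold was -1.06 (p = 0.571) for pcsk1, -2.30 (p = 0.283) for pcsk2 and 0.06 (p = 0.978) for mboat4, at levels of 0.954, 1.71 and 0.184.

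Of 24 regulators and marker genes of islet endocrine cells with a p-value, 1 fell and 23 did not pass. Of all genes with a p-value 0.221% passed, and 0.0893% passed in the lower direction. Among genes of level 10 or more, where the fallen gene lies, 0.345% passed lower. The list had 12 higher and 12 lower, a median log2 fold of 0.01 and a mean of -0.43. The gene that fell was gck (ENSDARG00000068006, chromosome 8, 40437570 to 40450987), which encodes glucokinase, the glucose sensor of beta cells and a glycolytic enzyme of liver. Its level was 24.2, and its log2 fold of -4.18 in the authors' deposited table came with an FDR p of 0.0363. neurod1 and isl1, named after their values were seen, are transcription factor genes of islet cells that neurons and retina use as well. The authors' deposited table gives neurod1 a log2 fold of 2.54 (p = 0.0154) and isl1 one of 2.02 (p = 0.0154). At an unadjusted p under 0.05 the list had 2 genes higher and 3 lower, against 4.43% of all genes higher and 5.24% lower. The list was chosen with earlier results of these data known, so nothing is read from these counts. The 3 lower genes of the list were gck, hnf1ba and nkx6.2, the last 2 also chosen after their values were seen. Which sorted cells held the RNA of these genes was not measured. Another gene of the list, nkx2.2a, is also counted among the oligodendrocyte markers. In the authors' deposited table hnf1ba had a log2 fold of -4.46 (p = 0.00406) and nkx6.2 one of -1.20 (p = 0.0343). The pancreas and beta cell factor gene pdx1, also chosen after its value was seen, had a level of 4.07 and a fold of 0.03 (p = 0.983) on the log2 scale of the authors' deposited table. Whether the folds of ins, gck and pdx1 differ was not tested, and the implied 95% intervals of gck (-6.20 to -2.17) and ins overlap, as do those of pdx1 (-2.82 to 2.89) and ins.

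Markers of the tissues that surround the hormone-producing cells had values of different sign, and their part in the values of the members was not tested. Of all genes with a p-value 13131 were higher and 12626 lower, and the median log2 fold at level 10 or more was 0.15. Of 19 exocrine pancreas genes, all with a p-value and none at level 0, 17 were lower and 2 higher, none passed the threshold, and the median log2 fold was -0.64. At an unadjusted p under 0.05 were 3 lower and 1 higher. Their summed level was 21041 in mutant cells and 41480 in wild-type cells, with the lower value of each gene by division. This sum and those below follow the genes of highest level, in a unit that may not correct for transcript length. They do not describe every gene of a list. prss59.2 and ela2, at levels of 10209 and 6410, are protease genes of this list. The authors' deposited table gives prss59.2 a log2 fold of -1.04 (p = 0.0646) and ela2 one of -0.64 (p = 0.310). Enterocyte genes had the opposite sign, 20 of 21 being higher, none past the threshold and none at level 0, a median log2 fold of 1.05 and summed levels of 2071 in mutant cells and 1566 in wild-type cells. At an unadjusted p under 0.05 were 4 higher and 0 lower. The shares over all genes with a p-value were 4.43% higher and 5.24% lower, and 0.221% passed the FDR threshold. Both the exocrine and the enterocyte list were chosen with earlier results of these data known, so nothing is read from their counts. apoa4b.1 and fabp2 encode proteins of lipid uptake, and in the authors' deposited table apoa4b.1 had a log2 fold of 0.15 (p = 0.799) and fabp2 one of 0.17 (p = 0.752). Both were named for their high level, and their folds lie below the median of the list.

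Neuronal markers had a median log2 fold of 0.26 over 24 genes, with 13 higher and 11 lower. None passed the threshold, against 0.221% of all genes with a p-value, and none was at level 0. Their summed levels were 323 in mutant cells and 332 in wild-type cells. Which sorted cells held npb or npy RNA was not measured, so markers of neurons do not follow those cells. Of the neuronal genes named here, the authors' deposited table gives elavl3 a log2 fold of -0.83 (p = 0.161) and snap25b one of 0.68 (p = 0.200). Oligodendrocyte markers were present in 18 of 18 found genes, 17 of them at level 1 or more, with a median of -0.25, 7 higher and 11 lower. Their summed levels were 10218 in mutant cells and 15353 in wild-type cells. The exocrine pancreas, enterocyte and neuronal lists had no gene at level 0 either. Transcripts of those lists were thus present in the RNA of the sorted cells. No unsorted cells were compared, so how far the sort enriched oligodendrocytes cannot be read from these levels. Of the 18 oligodendrocyte markers, 1 passed the threshold higher, 1 lower and 16 did not, against 0.881% of all genes of level 10 or more. At an unadjusted p under 0.05 were 2 higher and 3 lower, against 5.94% and 2.71% of those genes. The list was chosen with earlier results of these data known, so nothing is read from these counts. The called markers were hapln2, which rose, and mpz, which fell. They encode a link protein of the nodal matrix and myelin protein zero. Per the authors' deposited table, hapln2 had a log2 fold of 3.17 (FDR p = 0.0227) and mpz one of -2.96 (FDR p = 2.34e-04).

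**Figure D3:**
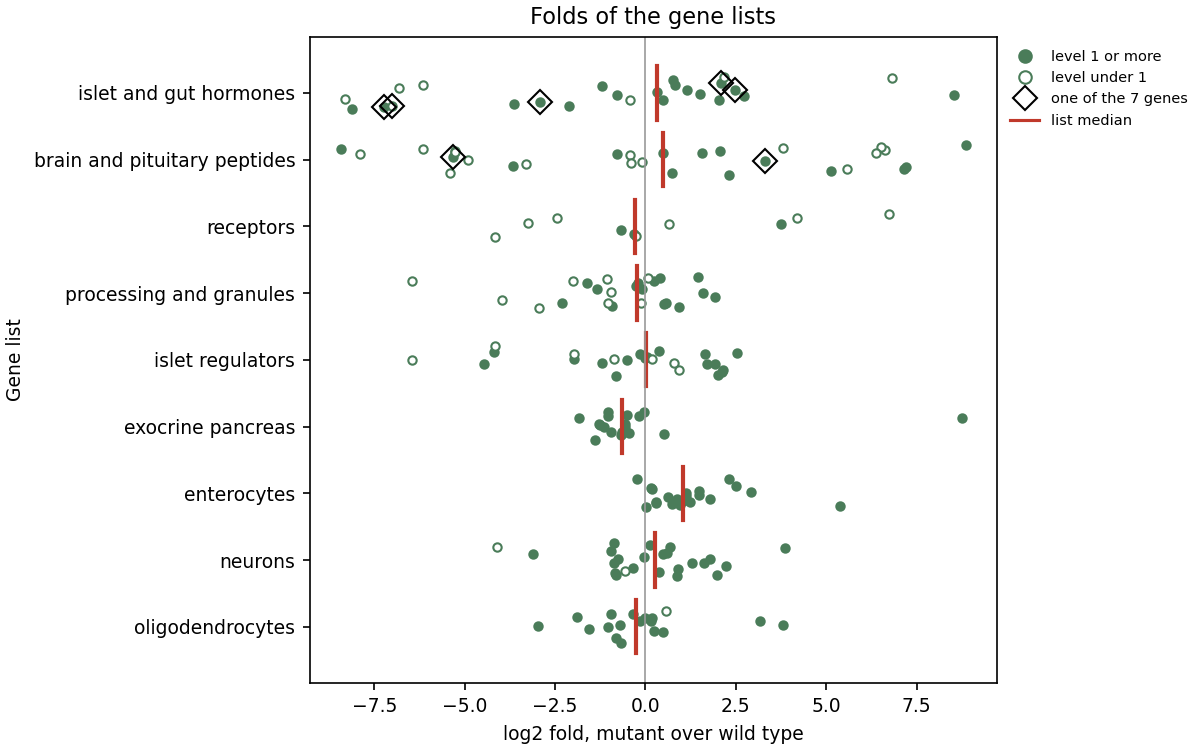
Log2 fold of mutant over wild type for each gene of the 9 lists, filled at level 1 or more and open below it, with red lines for list medians and diamonds around the 7 peptide hormone genes. Exocrine pancreas genes lie mostly below 0 (median -0.64), enterocyte genes mostly above it (median 1.05), and both hormone lists spread widely on both sides.

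Position on the chromosome was not used to choose the members, which lie on 6 chromosomes. Within 100 kb of the members were 67 other genes, of which 55 had a p-value, 29 higher and 26 lower. By the authors' FDR p-value none of these 55 passed, and 3 had an unadjusted p under 0.05. Of all genes with a p-value 0.221% passed and 9.66% had an unadjusted p under 0.05. With so small a share passing, nothing is read from the lack of calls among 55 genes. The low values of ghrl and npb were not shared by the nearest genes with a p-value on each side. For ghrl these were ccdc174 and vhl, the gene of the von Hippel-Lindau tumour suppressor. The authors' deposited table gives ccdc174 a log2 fold of -0.10 (p = 0.903) and vhl one of -0.39 (p = 0.712). tatdn2, 242 bp from ghrl, and BX936393.2 lie nearer than vhl, but both had level 0 and so no fold. Among the 5 genes of level 1 or more within the same distance of ghrl, the folds ran from -0.39 to 2.80.

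npb and gcga share a stretch of chromosome 22. They lie 79.9 kb apart with 2 genes wholly between them, and their folds have opposite signs. sgsh, which encodes a lysosomal sulfatase and lies 2370 bp before npb, had a log2 fold of 0.91 (p = 0.257) in the authors' deposited table. gnav1, a G protein alpha subunit gene 737 bp after npb on the other strand, had 2.42 (p = 0.131) in the authors' deposited table. The 8 genes of level 1 or more around npb ran from -1.02 to 2.42.

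Each glucagon gene had a relative of one peptidase family beside it. dpp4, 2535 bp from gcga on the same strand, encodes the enzyme that in mammals cuts glucagon-like peptide, peptide YY and neuropeptide Y, and fap, 3943 bp from gcgb, encodes a close relative of it. In human the glucagon gene lies between the counterparts of both. By the authors' deposited table, dpp4 had a level of 2.34 and a log2 fold of 1.73 (p = 0.206), and fap had 1.34 and -0.39 (p = 0.851). On the other side of gcga, pcyt2, a gene of phospholipid synthesis, had a log2 fold of -0.09 (p = 0.868) in the authors' deposited table. Genes of the opposite strand overlap gcga (CU463033.1, level 0.156), gcgb (AL954669.1, level 0) and pyya (CABZ01012959.1, level 0). Whether reads were counted by strand is not given in the sources used here, so reads of these pairs could not be told apart if they were not.

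Beside ins, the authors' deposited table gives panx1b a log2 fold of 0.70 (p = 0.672) and arhgap35b one of -0.75 (p = 0.487). Beside npy, mpp6b had -0.41 (p = 0.692) in the authors' deposited table, and BX640464.1 on the other side had a level of only 0.356. Next to pyya, mpp2a, 295 bp away on the same strand, had a log2 fold of -0.58 (p = 0.665) in the authors' deposited table, and CABZ01012957.1 a level of 0.0439. Past gcgb, slc4a10b had a level of 0.135.

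**Figure D4:**
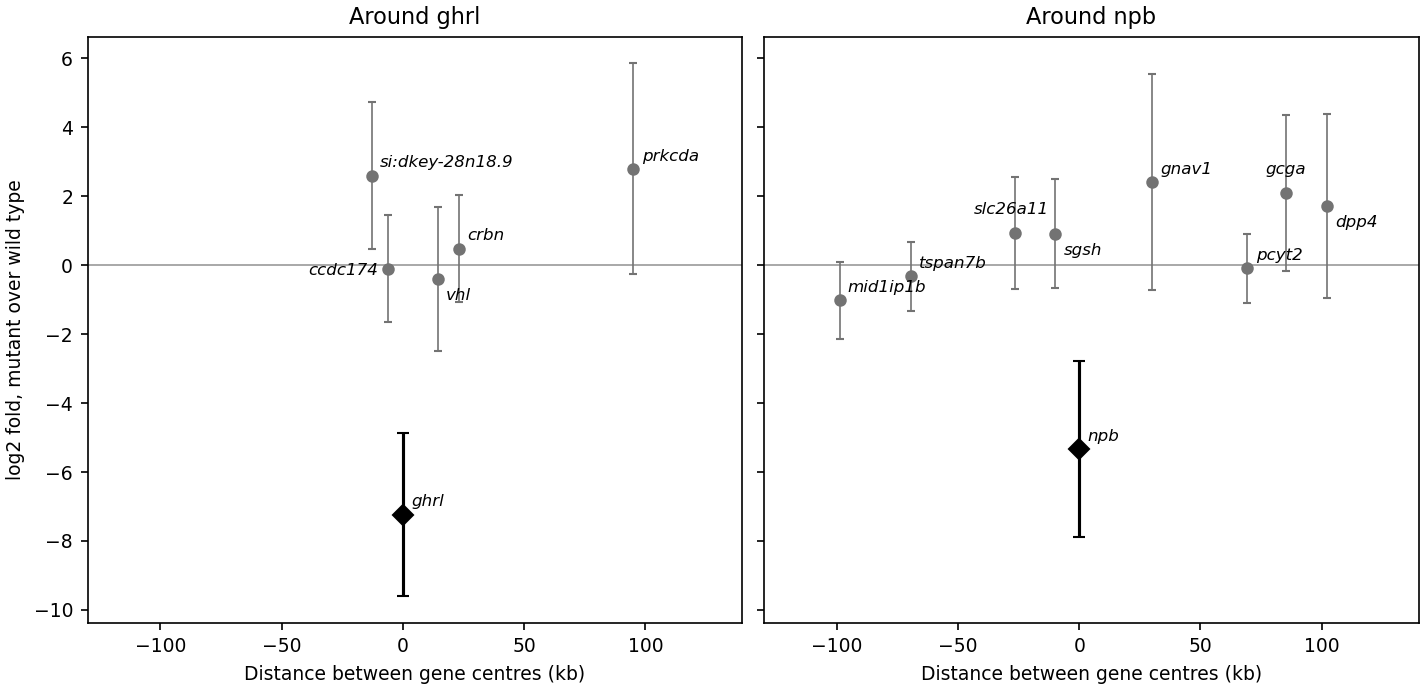
Log2 fold of mutant over wild type, with the implied 95% interval, against the distance in kb between gene centres for genes of level 1 or more within 100 kb of ghrl (left) and npb (right), each drawn as a black diamond at 0. The neighbours of ghrl lie between -0.39 and 2.80 and those of npb between -1.02 and 2.42, above both hormone genes.

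Among the 57 genes past the threshold, those nearest in fold to ghrl were plcl1, pygma and gngt1, to which the authors' deposited table gives log2 folds of -7.18, -8.32 and -5.38. plcl1 encodes a phospholipase-like protein, pygma a muscle glycogen phosphorylase and gngt1 a rod transducin subunit. plcl1 and pygma had levels of 3.40 and 4.08, and gngt1 had 58.5. Nearest to npb were again gngt1, then zgc:153981 (-4.91) and BX000438.1 (-4.85) in the authors' deposited table, with levels of 58.5, 96.9 and 105. Likeness here is closeness of 1 fold between 2 genotypes, so it carries no pattern over samples.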

How the data were processed

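RNA was measured by sequencing in Cldnk:GFP cells sorted from rraga mutant and wild-type larvae, with 1 record per genotype. Per the submitters' processing notes the genome build was GRCz11. How reads were aligned, counted, normalized and tested is not given in the sources used here. Per the file headers, the authors deposited a level (the maximum group mean, a normalized signal whose unit is not named), a log2 fold, a signed linear fold that served as a score of direction and size, and a p-value, FDR p-value and Bonferroni p-value. The 8569 genes of level 0 have no fold or p-value.

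The authors' test was used as deposited, with a call at an FDR p under 0.05, since no value per replicate allows a refit. The FDR p-values matched Benjamini-Hochberg adjustment over 34326 genes within 1.28e-04. To get the implied standard error, the size of the log2 fold was divided by the standard normal quantile that belongs to the p-value. These steps ran in Python 3.11.15 with scipy 1.17.1 and pandas 2.3.3, and were tested on simulated data. Of 239 genes on 9 lists, 216 were found by name, 3 by Ensembl identifier and 20 not. Depth is unknown, so no counting interval was made. Alternatives changed the threshold, the genes adjusted over and the summary of each list.

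The members and lists were chosen with earlier results of these data known. Named genes are the 7 members, up to 4 called genes of each list or else the 2 of highest level, the nearest gene with a p-value on each side of each member and the 3 called genes nearest in fold to ghrl and to npb. Any other gene was picked with its value in view, as the text says, or is named on the following grounds. These are a level of 0, overlap with a member, or a fold shared with other genes (nts, pnocb, gnrh3 and nmu). gipr and nkx2.2a are named for the make-up of their lists, and rraga as the mutated gene.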

Additional observations from a re-analysis of the deposited data

How the results depend on the processing

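No paired analysis was possible because the table holds the authors' comparison and no value per replicate, and for the same reason no replicate could be left out. The direction of each gene is the authors' under every setting tried. Of the 7 hormone genes, 2 were called under the authors' FDR p of 0.05, and 1, ghrl, at an FDR p under 0.01 and by the Bonferroni p under 0.05; npb was called in both refits of the adjustment, over genes from level 1 up and over those from level 10 up. Over all genes, the 57 called became 20 at an FDR p under 0.01, 14 by the Bonferroni p, 90 in the refit from level 1 up and 113 in that from level 10 up, with fewer genes tested in both. A filter on level leans on the larger of the means and so on the fold itself. On the lists, leaving out the members, 3 called genes became 1 at an FDR p under 0.01, 1 by the Bonferroni p, 4 in the refit from level 1 up and 7 from level 10 up. A minimum of 1 for the absolute log2 fold changed no count. Among neighbouring genes the count was 0 under each setting.

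With a mean in place of a median, the sign turned for islet and gut hormones (-0.91), receptors (0.43) and islet regulators (-0.43), and the processing list had -0.73. Over genes of level 1 or more the sign of the processing list turned, to 0.24, and the brain and pituitary list had 1.81. The cause was not tested. The medians of exocrine pancreas, enterocyte, neuron and oligodendrocyte genes kept their sign under both.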

Other observations

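Many hormone genes had very large folds at very low levels. Of the 54 hormone and neuropeptide genes with a p-value, the 7 members included, 23 had an absolute log2 fold over 5, of which 19 were under level 3 and 2, ghrl and npb, passed the FDR threshold. Among all genes, 1985 had such a fold, 97.7% of them under level 3, and 12 passed. Folds of this kind recur to the last digits. Of the 23 hormone genes, 15 had a log2 fold that at least 1 other gene of the table shared within 1e-06, and 65.7% of the 1985 did. For instance nts, a neurotensin gene, and pnocb had the same log2 fold of -6.15 in the authors' deposited table, which 28 genes carried in all, and gnrh3 and nmu both had -5.26, which 42 genes carried. Under level 1, 41.8% of genes shared their fold with another gene, and at levels of 10 to 30 it was 0.798%.

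cart4 and cga, genes of low level chosen after their values were seen, had large folds that no other gene shared. cart4, a CART peptide gene, has a level of 3.83 and a log2 fold of 7.15 (p = 9.55e-04, FDR p = 0.210) in the authors' deposited table. cga, the common subunit of pituitary glycoprotein hormones, has a level of 2.75 and a log2 fold of 7.19 (p = 0.00481, FDR p = 0.425) in the authors' deposited table. Both had the higher value in mutant cells. Of the brain and pituitary genes with a p-value, npb and npy included, 15 were higher and 14 lower. By the authors' unadjusted p under 0.05 there were 5 higher and 4 lower, against 4.43% of all genes higher and 5.24% lower. The list was chosen with earlier results of these data known, so nothing is read from these counts.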
